A study of Mus musculus with 12 samples.

Results

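Transcript signals of 7 mouse genes for acrosomal and zona pellucida binding proteins, Acr, Acrbp, Acrv1, Spam1, Zp3r, Zpbp and Zpbp2, were followed through 4 germ cell types. The list of members was drawn up with earlier results of these data known. Members were taken by gene symbol in the platform annotation and not by signal. They comprised 7 of 15964 named genes and 11 of 36701 probe sets, of which 8 lay on the Affymetrix design U74Av2, 3 on U74Cv2 and 0 on U74Bv2. A further 2 probe sets on U74Av2 carried both Acrbp and Ing4 in the annotation and were left out. Total RNA came from isolated Type A spermatogonia and Type B spermatogonia, from Pachytene spermatocytes and from Round spermatids of the mouse. For these cells the sources used here give no strain, age, genotype or isolation method. The series held 12 arrays, 1 array per cell type and design, each labelled a singlet. Ratios between cell types are therefore unreplicated, no p-value is given, and precision is limited by the number of arrays.

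The acrosome is a secretory vesicle that forms over the nucleus of the spermatid and covers the front of the sperm head. Its contents are released when the sperm meets the zona pellucida, the glycoprotein coat of the egg. Germ cells transcribe the genes of this organelle in advance: some are known to be read in meiosis, and others after it, in haploid spermatids. Type A and type B spermatogonia divide by mitosis, pachytene spermatocytes are in the prophase of the first meiotic division, and round spermatids are haploid cells in which the acrosome is built.

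Signals are given in units of the deposited linear intensity after a small rescaling, and a floor of 50.03 units was set on U74Av2 and U74Cv2. Ratios were taken from floored signals within a design, so a ratio whose lower side is under the floor is a lower bound, marked by the words at least. The negative controls read up to 32.7 units on the U74Av2 arrays and up to 103.5 units on the U74Cv2 arrays. The same control probe sets on the 3 designs gave the technical spread of a log2 ratio, an SD of 0.26 between type B and type A, of 0.23 between pachytene and type B, and of 0.44 between round spermatids and pachytene. This SD leaves out differences between cell preparations and between the probe sets of a gene. Of 8 measured spermatogonial markers 7 were at least 4-fold lower in pachytene spermatocytes than in the higher spermatogonial type, and 5 of 7 pachytene markers were at least 4-fold higher. Of 12 spermatid markers 11 were at least 4-fold higher in round spermatids than in pachytene spermatocytes, and 6 of the 12 also met the rule for early onset given below. The spermatogonial arrays also read matrix genes of fibroblasts, with summed signals of 4847 units in type A and 11454 units in type B spermatogonia, against 196.0 on the pachytene and 500.7 on the round spermatid arrays, over 7 genes, of which 6, 7, 2 and 2 exceeded the floor. The sum of 9 Sertoli cell markers was 8192 units in type A and 6227 units in type B spermatogonia, 3815 units in pachytene cells and 931.2 units in round spermatids. In the same order, 5 measured Leydig cell markers summed to 392.8, 681.0, 662.9 and 182.4 units. For 7 leukocyte markers the sums were 489.2, 831.6, 333.6 and 429.6 units. The part of other cells in the signals below was not tested, and in such preparations fewer cells of a type and less RNA per cell cannot be told apart.

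The 7 genes fell into 2 onset classes. In pachytene spermatocytes Acr, Acrbp, Zpbp and Zpbp2 stood at least 4-fold over the higher of the 2 spermatogonial types, which was called early onset. Acrv1, Spam1 and Zp3r stayed under that ratio in pachytene spermatocytes and were at least 4-fold higher in round spermatids than in pachytene spermatocytes and in both spermatogonial types, which was called late onset. Early onset held for 4 of 7 members, against a background of 6.18% of the 13003 named genes that exceeded the floor in at least 1 cell type. Late onset held for 3 of 7 members, against 2.63% of those genes. All 7 members thus belonged to a class, against 8.81% of all genes. None was at least 4-fold lower at either step, beside 7.88% of genes at the first and 1.96% at the second. Shares of this size do not set 0 of 7 apart. By the class rules, moreover, an early gene cannot be lower at the first step, nor a late gene at the second. The median log2 ratio of pachytene over the higher spermatogonial type was 3.67 over the members and -0.40 over all genes. The 3.67 is the value of Acrbp on its main probe set, a lower bound because its spermatogonial readings lay under the floor. That median was 2.12 with the mean over probe sets and 1.505 with second probe sets. For round spermatids over pachytene the median log2 ratio was 1.31 over the members and 0.00 over all genes. The 1.31 is the value of Zpbp on its main probe set, and the members' median was 0.24 with the mean over probe sets. With the second probe set of Acr, Acrbp and Zpbp, the only members that have another, it was 0.17.

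**Figure D1:**
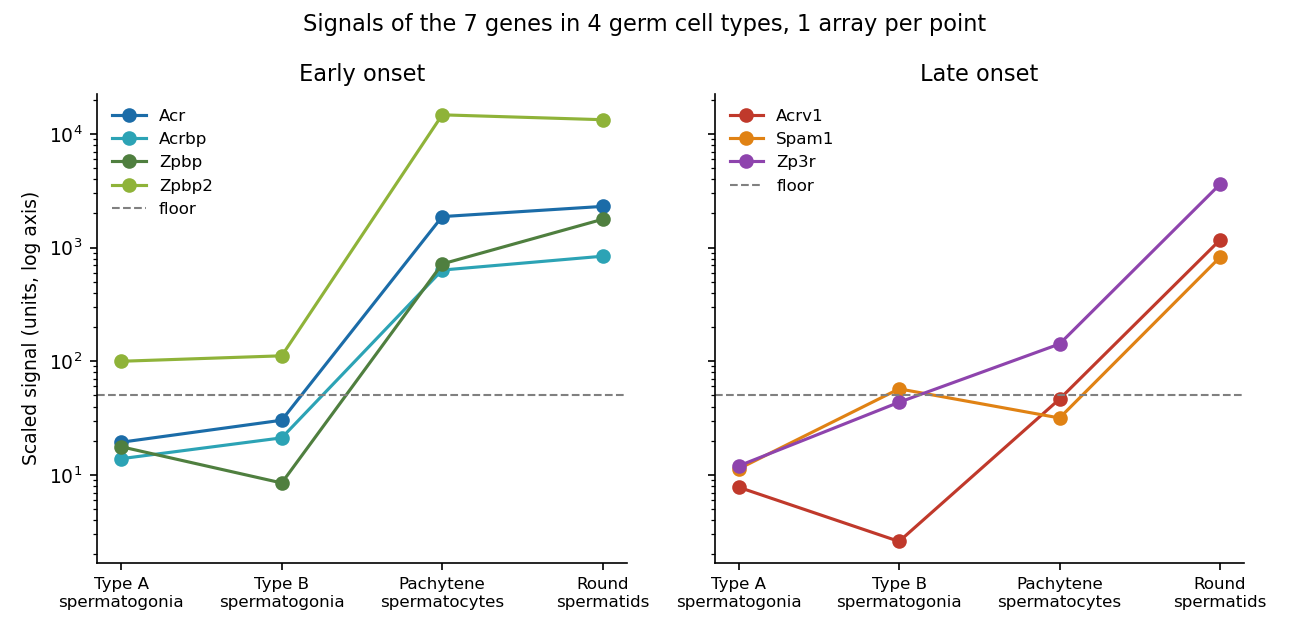
Scaled signal in units on a log axis for the representative probe set of each gene in the 4 cell types, from type A spermatogonia on the left to round spermatids on the right, with 1 array per point. The left panel holds the 4 genes of early onset, which are high in both pachytene spermatocytes and round spermatids, and the right panel the 3 genes of late onset, which are high in round spermatids; the dashed line is the floor.

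Among the genes of early onset, Acr encodes proacrosin, the zymogen of the serine protease acrosin. Its probe set 93207_at read 19.4 units in type A spermatogonia, 30.3 in type B, 1874 in pachytene spermatocytes and 2305 in round spermatids. Both spermatogonial signals lay under the floor and under or close to the highest negative control of their arrays (17.2 and 32.7 units), so Acr was at least 37.5-fold higher in pachytene spermatocytes. Round spermatids differed from pachytene spermatocytes by a log2 ratio of 0.30, which is less than the technical SD of 0.44. A second Acr probe set, 169107_r_at on U74Cv2, read 389.5 units in type A spermatogonia, 286.0 in type B, 475.4 in pachytene spermatocytes and 536.4 in round spermatids. On that probe set pachytene spermatocytes were 1.22-fold higher than the higher spermatogonial type, so the 2 probe sets of Acr disagreed on the step. The suffix r marks probe sets for which Affymetrix relaxed its probe selection rules.

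Acrbp encodes a protein of the acrosomal matrix that binds proacrosin and takes part in its packaging and processing. Its probe set 99455_s_at read 13.9 units in type A spermatogonia, 21.2 in type B, 634.6 in pachytene spermatocytes and 840.2 in round spermatids. A second probe set on the same design, 99456_at, read 4.9, 5.2, 321.3 and 323.8 units in the same order of cell types. Both were high in the pachytene and round spermatid arrays and under the floor in the spermatogonial ones, and the ratio of pachytene over the higher spermatogonial type was at least 12.7-fold on the first and at least 6.42-fold on the second. Between round spermatids and pachytene spermatocytes the first differed by a log2 ratio of 0.40 and the second by 0.01, both under the technical SD. The remaining probe set, 161720_r_at, stayed under the floor in all 4 cell types, with a highest signal of 16.5 units in type B spermatogonia. The 2 probe sets that also carry Ing4 did not follow this profile: 161148_f_at read 118.9, 124.1, 26.2 and 19.5 units from type A spermatogonia to round spermatids, and 99635_at read 95.5, 135.5, 124.6 and 86.2.

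Zpbp and Zpbp2 encode related zona pellucida binding proteins of the acrosome. The main Zpbp probe set, 93955_at, read 17.7 units in type A spermatogonia, 8.50 in type B, 718.4 in pachytene spermatocytes and 1776 in round spermatids. Zpbp was at least 14.4-fold higher in pachytene spermatocytes than in spermatogonia, and 2.47-fold higher again in round spermatids than in pachytene spermatocytes. It was the one member of early onset whose second step, a log2 ratio of 1.31, exceeded the technical SD on the main probe set. Its second probe set, 167798_i_at on U74Cv2, read 72.4 units in type A spermatogonia, 54.6 in type B, 1409 in pachytene spermatocytes and 509.1 in round spermatids. The spermatogonial readings lay near or under the highest negative controls of these arrays (69.1 and 103.5 units), and with the floor raised to 103.5 units pachytene spermatocytes were at least 13.6-fold higher. The second step ran the other way, with round spermatids 2.77-fold lower than pachytene spermatocytes. Early onset was thus read by both Zpbp probe sets, and the direction from pachytene spermatocytes to round spermatids was not. The suffix i marks probe sets with fewer probes than the design called for.

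Zpbp2 was high in both pachytene spermatocytes and round spermatids. Its single probe set, 165894_s_at on U74Cv2, read 100.01 units in type A spermatogonia, 111.7 in type B, 14729 in pachytene spermatocytes and 13343 in round spermatids. The suffix s, like r and i, is a special ending, and no second Zpbp2 probe set was there to compare. The spermatogonial signals exceeded the floor, but the highest negative controls of these arrays read 69.1 units in type A and 103.5 units in type B, so a transcript level in spermatogonia is not told from background. Pachytene spermatocytes were therefore at least 132-fold higher than spermatogonia, a bound set by the type B reading. The log2 ratio of round spermatids over pachytene of -0.14 and that of type B over type A of 0.16 were each under the technical SD of their step.

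Among the genes of late onset, Acrv1 encodes an acrosomal vesicle protein that is a classical marker of the acrosome in round spermatids. Its only probe set, 92897_at, read 7.80 units in type A spermatogonia, 2.60 in type B, 46.5 in pachytene spermatocytes and 1168 in round spermatids. Only the round spermatid signal exceeded the floor, and round spermatids were at least 23.3-fold higher than pachytene spermatocytes. The pachytene signal of 46.5 units lay under the floor and over the highest negative control of its array, 12.9 units. With no floor at all, pachytene spermatocytes came out at a log2 ratio of 2.57 over the higher spermatogonial type, from readings that are all under the floor, and Acrv1 would then count as early.

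Spam1 encodes a hyaluronidase anchored to the sperm surface and the acrosomal membrane, which digests the matrix around the egg. Its probe set 92743_at read 11.3 units in type A spermatogonia, 57.2 in type B, 31.7 in pachytene spermatocytes and 823.1 in round spermatids. The type B signal stood a little over the floor, where the highest negative control of that array read 32.7 units, and the pachytene signal lay under the floor. Round spermatids were at least 16.5-fold higher than pachytene spermatocytes and 14.4-fold higher than type B spermatogonia.

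Zp3r encodes a protein of the acrosomal matrix that binds the zona pellucida in the mouse. Its probe set 100402_f_at read 12 units in type A spermatogonia, 43.6 in type B, 142.0 in pachytene spermatocytes and 3610 in round spermatids. Round spermatids were 25.4-fold higher than pachytene spermatocytes and at least 72.2-fold higher than spermatogonia. Pachytene spermatocytes were at least 2.84-fold higher than spermatogonia, a step that passes a 2-fold but not the 4-fold threshold, and at 2-fold Zp3r would count as early. The suffix f marks probe sets whose probes may match several members of a sequence family, and Zp3r had no other probe set.

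At the step of type B over type A spermatogonia, 0 of 7 members were at least 4-fold higher or lower. The background was 0.154% of genes higher and 0.162% lower, which does not set 0 of 7 apart. On the representative probe sets both spermatogonial signals of 5 members lay under the floor, and Spam1 exceeded it in type B and Zpbp2 in both. The second probe sets of Acr and Zpbp exceeded it in both spermatogonial types. At the step of round spermatids over pachytene, 3 of 7 members were at least 4-fold higher, against 3.84% of all genes, and these 3 were the genes of late onset. None of the 4 genes of early onset reached 4-fold at this second step, and 0.315% of all genes passed both steps. Of the 804 early genes among all genes 41 passed both, so the absence among 4 early members is not set apart. In the plot of the ratios at both steps no member lay in the upper right, past 4-fold at both. Zpbp, at log2 ratios of at least 3.84 and of 1.31, and Zp3r, at least 1.505 and 4.67, lay off both axes.

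**Figure D2:**
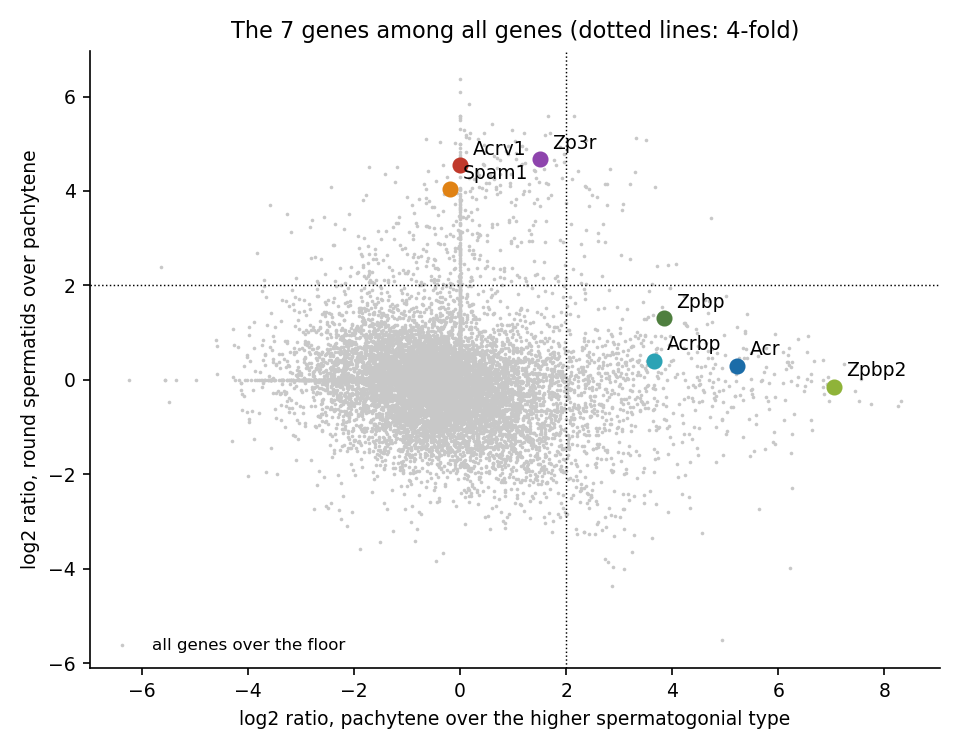
The log2 ratio of pachytene over the higher spermatogonial type on the horizontal axis and that of round spermatids over pachytene on the vertical axis, for 13003 genes in grey and the 7 members in colour. Dotted lines mark 4-fold; Acr, Acrbp, Zpbp and Zpbp2 lie to the right of the vertical line, and Acrv1, Spam1 and Zp3r above the horizontal one.

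The ratio at the second step was also written as the pachytene signal in percent of the round spermatid signal of the same probe set. A low share of the late genes follows from the rule for late onset and is no second reading of the split. The share was 81.3% for Acr, 75.5% for Acrbp, 40.5% for Zpbp and 110% for Zpbp2. It was 3.93% for Zp3r, while Acrv1 and Spam1 were under the floor in pachytene spermatocytes, which puts their shares under 4.28% and 6.08%. The same share was taken for markers of spermatids. In the 11 of 12 such markers over the floor in both cell types the share had a median of 5.93% and ran from 3.47% for Akap4, a gene of the sperm tail, to 20.3% for Spata18. The Spata18 pachytene reading, 93.6 units, lay under the highest negative control of U74Cv2, 103.5 units in type B. It lay over the 61.2 units of the pachytene array. The protamine gene Prm1 had 9.23% and the transition protein gene Tnp2 4.71%, and the summed signal of the 12 markers was 58871 units in round spermatids and 4076 units in pachytene spermatocytes. The share of Zp3r lay within the range of these markers, and the shares of the 4 genes of early onset lay above all of them. What part spermatid RNA has in the pachytene signals was not tested. Among 6 pachytene markers the share ran from 13.3% for Pgk2 to 107% for Hspa2, a heat shock protein gene of meiotic cells.

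**Figure D3:**
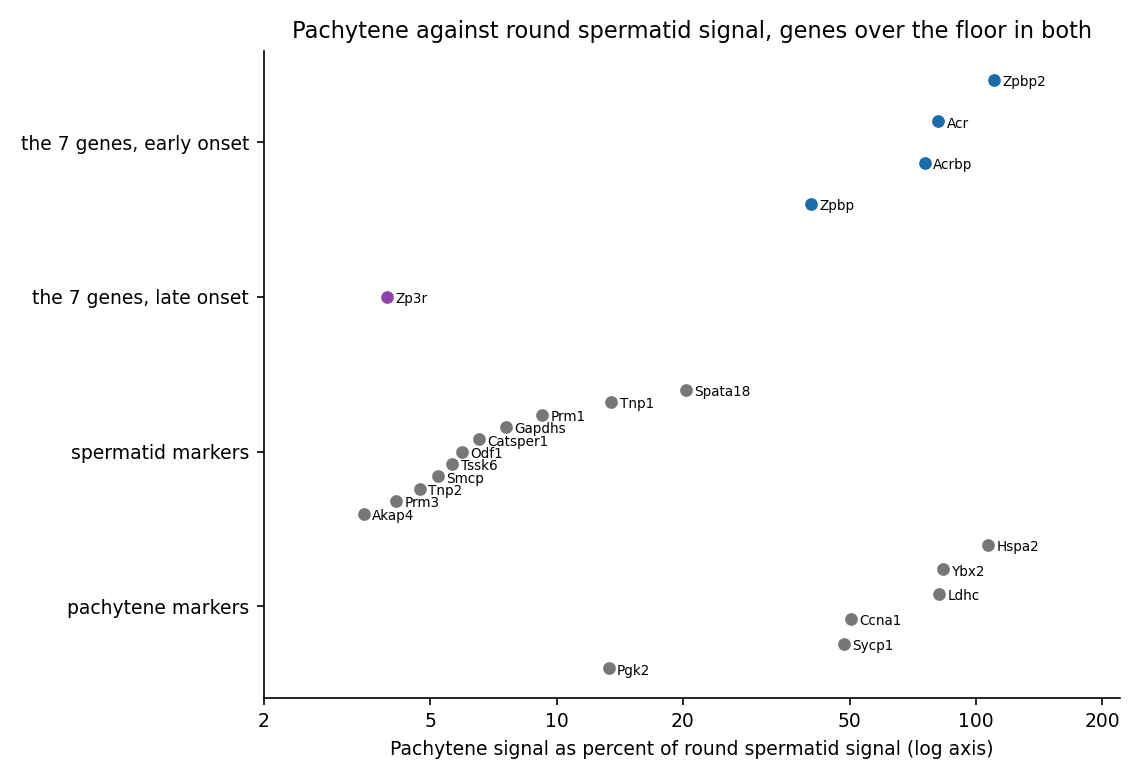
Pachytene signal as percent of the round spermatid signal on a log axis, for genes over the floor in both cell types. The 4 genes of early onset range from 40.5% to 110% and lie above all 11 spermatid markers, which end at 20.3%, whereas Zp3r, the gene of late onset that could be placed, has 3.93%.

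The sequences upstream of the starts were compared because the members of a class were high in the same cell types. RefSeq promoter sequences of build GRCm38.p6 matched 6 of the 7 members, all but Acr. Below are the 150 bases that end just before the annotated start, written on the gene's strand from 5′ to 3′, with each CpG dinucleotide in capitals; the first 3 genes are of early onset and the last 3 of late onset.
Acrbp, chr6:125049777-125049926, plus strand: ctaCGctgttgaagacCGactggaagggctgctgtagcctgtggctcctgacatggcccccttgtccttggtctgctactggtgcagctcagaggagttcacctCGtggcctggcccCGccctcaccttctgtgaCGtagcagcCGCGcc
Zpbp, chr11:11462420-11462569, minus strand: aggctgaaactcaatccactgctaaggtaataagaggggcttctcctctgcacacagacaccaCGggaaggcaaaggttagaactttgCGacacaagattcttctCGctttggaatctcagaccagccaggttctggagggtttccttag
Zpbp2, chr11:98550947-98551096, plus strand: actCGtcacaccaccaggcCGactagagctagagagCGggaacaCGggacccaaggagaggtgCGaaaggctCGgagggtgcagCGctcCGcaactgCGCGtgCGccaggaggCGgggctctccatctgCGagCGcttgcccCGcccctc
Acrv1, chr9:36693070-36693219, plus strand: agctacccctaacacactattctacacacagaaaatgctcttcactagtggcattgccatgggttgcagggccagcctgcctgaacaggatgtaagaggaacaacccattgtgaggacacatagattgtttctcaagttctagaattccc
Spam1, chr6:24791038-24791187, plus strand: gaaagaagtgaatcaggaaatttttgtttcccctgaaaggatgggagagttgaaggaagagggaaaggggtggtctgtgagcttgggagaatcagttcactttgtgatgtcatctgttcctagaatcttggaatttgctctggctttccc
Zp3r, chr1:130629607-130629756, minus strand: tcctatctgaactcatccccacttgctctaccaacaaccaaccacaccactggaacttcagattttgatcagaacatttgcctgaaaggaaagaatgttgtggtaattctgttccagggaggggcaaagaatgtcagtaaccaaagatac
The early genes Acrbp, Zpbp and Zpbp2 held 7, 3 and 15 CpG dinucleotides in these stretches, and the late genes Acrv1, Spam1 and Zp3r held 0 each. Over the 250 bases upstream, Acrbp had 11, Zpbp 4 and Zpbp2 19, with observed over expected ratios of 0.57, 0.29 and 0.78, whereas Acrv1, Spam1 and Zp3r had 0. The GC content of the same 250 bases was 55.6% for Acrbp, 46.8% for Zpbp and 62.4% for Zpbp2, and 42% for Acrv1, 39.6% for Spam1 and 41.2% for Zp3r. No CpG was found in this window in 7.87% of all 32851 RefSeq promoters.

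The same measure was taken over the other genes of each class. Among 269 other genes of late onset with a promoter in the table the median observed over expected CpG ratio was 0.29, and 68.4% lay under 0.5. Among 654 other genes of early onset the median was 0.68 and 32.4% lay under 0.5, and among 9458 genes of neither class it was 0.71 and 27.4%. Over all promoters of the table, which also hold genes not measured here, the median was 0.37 and 59.5% lay under 0.5, close to the late genes. A window with no CpG at all was found for 9.29% of late, 1.99% of early and 1.65% of the remaining genes, beside the 7.87% of all promoters. These are descriptions over genes with no test, and the first annotated start of a gene need not be the one used in germ cells.

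**Figure D4:**
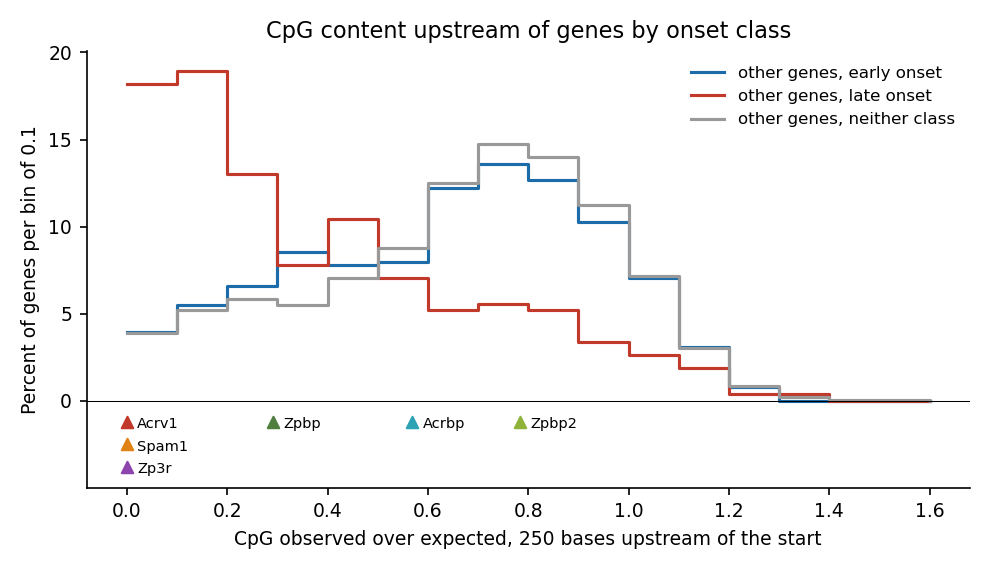
Observed over expected CpG ratio in the 250 bases upstream of the start on the horizontal axis and the percent of genes per bin of 0.1 on the vertical axis, for genes of early onset, late onset and neither class without the members. Triangles under the axis mark 6 members: Acrv1, Spam1 and Zp3r sit at 0, Zpbp at 0.29, Acrbp at 0.57 and Zpbp2 at 0.78.

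The upstream windows of 250 bases were searched on both strands for 5 short motifs. The core TGACG of the cyclic AMP response element, the element bound by the spermatid activator CREM, was found in Acrbp 18 bases and in Zpbp2 147 bases upstream of the start, against 17.8% of all promoters. The full element TGACGTCA, which contains that core, was in none of the 6 members and in 1.55% of all promoters. The repeat GTGTGT was found in Acrv1 alone among the members, at 184, 139 and 127 bases upstream, the last 2 on the opposite strand, against 14.9% of all promoters. The motif GGCAGTT of the meiotic activator A-MYB (3.33% of all promoters) and the box TATAAA (12.4%) were in none of the 6. A match or its absence describes the letters of these windows only.

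Beyond the 7 members, 76 other genes of acrosome contents, sperm surface and zona binding, acrosome biogenesis, acrosomal exocytosis, the perinuclear theca and the egg coat were listed, of which 60 were measured and 51 exceeded the floor. Of these 51 genes 15 were of early and 6 of late onset, which is 29.4% and 11.8%, against 6.18% and 2.63% of all genes. In the list of acrosome contents all 8 genes over the floor belonged to a class, 6 early and 2 late. Among these 6, Tmprss12 was 4.64-fold higher in pachytene spermatocytes than in the higher spermatogonial type. Its spermatogonial readings lay under the highest negative control of U74Cv2, 103.5 units, which was read on the type B array. The type A reading, 81.5 units, lay over the 69.1 units of its own array. Over the 103.5 units the Tmprss12 ratio was at least 3.65-fold, short of 4-fold, and the gene is counted as early here and among the 15. The sperm protein gene Crisp2 was at least 73.3-fold, the serine protease gene Prss21 at least 13.6-fold, the protease inhibitor gene Spink2 23.2-fold and Arsa, which encodes arylsulfatase A, at least 20.9-fold higher in pachytene spermatocytes than in spermatogonia. For Prss21, and below for Fam209, Actl9 and Spaca9, the spermatogonial readings lay under the highest negative control of the design, 103.5 units on U74Cv2 and 62.4 on U74Bv2, and the bound is taken over that control. Spaca3, a lysozyme-like protein gene of the acrosome, was 17.7-fold and the protease gene Prss55 10.9-fold higher in round spermatids than in pachytene spermatocytes, and both were late.

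Among 15 sperm surface and zona binding genes over the floor 3 were early and 2 late. Adam2, which encodes a fertilin subunit, was at least 26.9-fold, Spa17 25.3-fold and Adam3, a gene needed for zona binding in the mouse, at least 15.5-fold higher in pachytene spermatocytes than in spermatogonia. Izumo1, whose protein on the sperm binds the egg receptor at fusion, was 16.9-fold and Eqtn, a gene of the acrosomal membrane, at least 5.80-fold higher in round spermatids than in pachytene spermatocytes. The list median log2 ratio at the first step was 0.28, against 3.67 for the members and 3.68 for acrosome contents.

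The lists of genes that build or release the acrosome held 0 late genes among 11 over the floor in each, a count that the 2.63% of all genes does not set apart at this list size. Of 11 biogenesis genes over the floor 2 were early: Fam209 was at least 4.27-fold and Agfg1 5.48-fold higher in pachytene spermatocytes, and Fam209 was a further 12-fold higher in round spermatids. Of 11 exocytosis genes over the floor 1 was early, a share near the 6.18% of all genes. It was Plcd4, which encodes a phospholipase C of the acrosome reaction, 6.35-fold higher in pachytene spermatocytes. In the same list Cplx2, a complexin gene, was at least 5.32-fold lower in pachytene spermatocytes than in the higher spermatogonial type. Over the highest negative control of U74Bv2, 62.4 units, the Cplx2 log2 ratio was -2.09, still past 4-fold. Nsf, an ATPase gene of membrane fusion, was 4.53-fold lower at that step. These were 2 of 11 genes, beside the 7.88% of all genes at least 4-fold lower at that step.

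In the perinuclear theca, the shell between acrosome and nucleus, 3 of 5 genes were early and 2 late. Actl9 was at least 13.8-fold, Actl7b at least 13.2-fold and Spaca9 at least 4.35-fold higher in pachytene spermatocytes than in spermatogonia. The actin capping gene Capza3 was at least 30.1-fold and the actin-like gene Actl7a at least 20.4-fold higher in round spermatids than in pachytene spermatocytes. The Actl7a pachytene reading, 81.1 units, lay under the highest negative control of U74Cv2, 103.5 units, and its bound is taken over that control. The 103.5 units were read on the type B array, and the Actl7a reading lay over the 61.2 units of the pachytene array. At the same step Spaca9 was 12.9-fold and Actl7b 5.32-fold higher. The theca thus held 2 early genes, Actl7b and Spaca9, that passed 4-fold at both steps. None of the 7 members did, a count that is not set apart at this number of genes. The egg coat genes Zp1 and Zp3 were under the floor in all 4 germ cell types, and Zp2 read 51.0, 57.0, 71.8 and 88.7 units from type A spermatogonia to round spermatids.

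**Figure D5:**
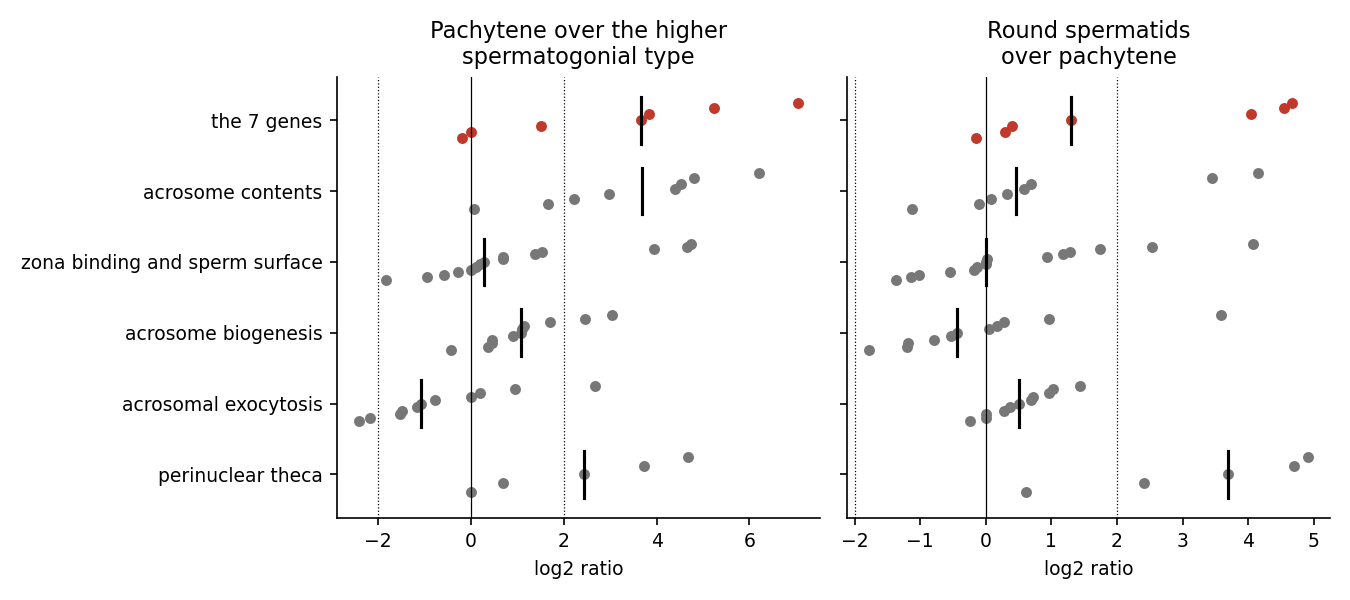
The log2 ratio of pachytene over the higher spermatogonial type on the left and of round spermatids over pachytene on the right, for genes over the floor in each list, with 1 point per gene and a bar at the median. The 7 members, in red, have medians of 3.67 and 1.31; dotted lines mark 4-fold in either direction.

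The profiles over the 4 cell types were also compared by the Euclidean distance of floored log2 signals, each less its own mean. Among pairs of members the distance ran from 0.52 between Acrv1 and Spam1 to 5.92 between Spam1 and Zpbp2. Acr lay closest to the mean profile of its class with 0.22, and Zpbp2 farthest with 1.90. Among 7751 candidate genes, 1700003E16Rik, Cfap206, Insl6, Actl9 and Ms4a13 were nearest to the mean of the early members, at distances of 0.068, 0.11, 0.18, 0.19 and 0.21. Nearest to the mean of the late members were Ccdc70, Cabs1, Lpcat2b, Stat4 and Aqp7, at 0.13, 0.15, 0.16, 0.18 and 0.19. Stat4, a transcription factor gene, read 8.0 units in type A spermatogonia, 26.1 in type B, 64.0 in pachytene spermatocytes and 1288 in round spermatids. With 1 array per cell type, such likeness rests on at most 4 values for each gene, and readings under the floor count as equal. The spermatogonial readings of all these nearest genes lay under the floor, except Actl9 in type B with 55.8 units. Acrv1 exceeded the floor in round spermatids only, so its distance to Spam1 rests largely on floored readings. The pachytene readings of Ccdc70, Cabs1 and Lpcat2b (68.0, 78.4 and 62.7 units) lay under the highest negative control of U74Cv2, 103.5 units. That control was read on the type B array. On the pachytene array the controls read up to 61.2 units, and these readings lay over it.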

How the data were processed

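Per the labels, one-cycle Affymetrix labelling of total RNA from 4 mouse germ cell types was followed by hybridisation to 3 designs. The values the authors deposited are linear intensity signals per probe set, and the submitters' processing notes name MAS5; version, settings and genome build are not given in the sources used here. Every deposited array had a 2% trimmed mean between 125.0 and 125.1.

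From these, arrays of a design were brought to the geometric mean of their trimmed means, signals under 0.4 of that mean were set to this floor, and log2 was taken. Of 228 readings of negative controls 22 exceeded the floor. A single gene symbol was annotated to 29131 of 36701 probe sets, of which 29044 were matched to RefSeq GRCm38.p6 by Entrez identifier. A gene is represented by its probe set of highest mean signal. Early onset is a ratio of at least 4 for pachytene over the higher spermatogonial type; late onset is not early and at least 4 for round spermatids over pachytene and over the higher spermatogonial type. With 1 array per group no test was run; counts stand beside the share of all genes. Named are all members, up to 4 genes per list and step past 4-fold, and up to 4 spermatid markers. The 5 nearest profiles per class among genes reaching 4 floors are named too. Pgk2, Hspa2, Sycp1, Sycp3, Tmprss12 and the egg coat genes were chosen after their values were seen. Scripts used Python 3.11.15, numpy 2.4.6, pandas 2.3.3, scipy 1.17.1 and matplotlib 3.10.9, and were checked on simulated data. Alternatives covered scaling, floor, fold, probe set, design and comparison type. Members and lists were chosen with earlier results of these data known, and the promoter measures and motifs after the signals were seen.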

Additional observations from a re-analysis of the deposited data

How the results depend on the processing

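The onset class of each of the 7 members was the same under the deposited values, a common median, spike-in scaling, 0.5 and 2 times the floor, the mean over probe sets, probe sets without special endings, an 8-fold threshold and type B alone as the comparison. Exceptions were Acrv1, which became early with no floor, Zp3r, which became early at a 2-fold threshold, and Acr, which fell into neither class on its second probe set; on U74Av2 only, Zpbp2 was not measured and the other 6 kept their class. The counts of early and late members then stood between 3 and 5 and between 2 and 3. A common median shifted the median log2 ratio of all genes at the pachytene step from -0.40 to 0.00.

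The members' median log2 ratio of pachytene over the higher spermatogonial type moved by more than the technical SD to 3.91 under spike-in scaling, 4.67 with 0.5 times and 2.67 with 2 times the floor, 4.90 with no floor, 2.12 with the mean over probe sets, 1.505 with the second probe set, 2.68 without special endings and 2.58 on U74Av2 only. That of round spermatids over pachytene moved to 0.24 with the mean over probe sets, 0.17 with the second probe set and 2.67 on U74Av2 only. A higher or lower floor changes a bound by its construction. The second probe set replaced the main one only in Acr, Acrbp and Zpbp, the members with more than 1. In the setting without special endings, Zp3r and Zpbp2 kept their only probe sets, which carry such endings. For the probe sets the cause was not tested. The Zpbp ratio of round spermatids over pachytene, log2 1.31, was -0.08 as the mean over probe sets and -1.47 on the second. No value of at least 4-fold turned its direction in these settings. A floor at the highest negative control of each design was chosen after seeing the data. On U74Av2 it left the main floor in place, because the controls there read only up to 32.7 units. Zpbp2 on U74Cv2 read 111.7 units in type B, over the raised floor of 103.5 units. The 7 onset classes and both medians therefore could not change, and this setting is no check of them. No paired analysis was possible because each cell type has 1 array per design. Negative controls of up to 103.5 units limit what can be read of low signals on U74Cv2.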
